A study of Mus musculus with 9 samples.

Results

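The Notch genes examined were 10 genes of the mouse Notch pathway: the ligands Jag1, Jag2 and Dll1, the receptors Notch1, Notch2, Notch3 and Notch4, the receptor-modifying enzyme Lfng and the targets Hes1 and Hey1. They were chosen by name, with earlier results of these data known. They are 10 of the 19937 genes that have an array probeset annotated to 1 symbol. Where a gene has several such probesets, the one with the highest mean over the 9 arrays is taken. Each of these 10 genes has 1, so no measured level decided which probeset stood for it. All 10 had a mean log2 expression of at least 4, the minimum below which a signal is close to background.

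The study asked what Mkl1 (also called Mrtfa), a transcriptional coactivator that binds actin and serum response factor (SRF), does to the transcriptome through SRF and through its SAP domain, a putative DNA-binding region. HC11 cells, an epithelial line from the mammary gland of mid-pregnant BALB/c mice that carries mutated p53, were stably transfected with red fluorescent protein fusions of Mkl1 and sorted for fluorescence. HC11-mutB1 carries Mkl1 with a mutated basic region that blocks its interaction with SRF, HC11-ΔSAP carries Mkl1 without the SAP domain, and HC11-FL, the reference strain, carries full length Mkl1. All of them were kept for 48 h in 0.03% FCS without added growth factor before RNA was taken, with 3 arrays per strain. Each construct is 1 sorted strain, and no array of an empty vector strain was analysed here. Nothing in the labels says that the arrays of a strain came from more than 1 derivation of it, or from separate cultures. The p-values therefore measure the spread between its arrays only.

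Notch receptors are cleaved when a Jagged or Delta-like ligand on a neighbouring cell binds them. The freed intracellular domain enters the nucleus, joins the DNA-binding protein Rbpj and a Mastermind coactivator, and activates target genes such as the repressors Hes1 and Hey1. In the mammary gland the pathway is known for steering progenitor cells towards the luminal lineage, and Notch4 was first found as a site of mouse mammary tumour virus insertion.

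Levels are given as log2 expression, in which a difference of 1 is a doubling. A gene is said to have risen or fallen where limma's adjusted p was at most 0.01. "All filters" adds a fold of at least 2. The arrays resembled each other closely, with correlations over all probesets of 0.994 to 0.995 within a strain and 0.985 to 0.989 between strains. Of 6 mammary epithelial markers 5 lay above the minimum (Krt19 did not), of 4 basal markers all 4, and of 4 endothelial markers 0. The Mkl1 probeset, which cannot tell the endogenous gene from a construct, averaged 9.83 ± 0.07 in HC11-mutB1, 9.47 ± 0.07 in HC11-ΔSAP and 9.95 ± 0.11 in HC11-FL (SD, n = 3 each). By limma it fell in HC11-ΔSAP against HC11-FL by 0.48 (1.39-fold, adjusted p = 0.0018). In HC11-mutB1 it differed from HC11-FL by -0.12 (adjusted p = 0.31). For the proteins, the paper reports roughly equal overexpression of the Mkl1 variants by Western blot. The part of the lower Mkl1 signal in HC11-ΔSAP in the other differences was not tested. RMA returned exactly the same value in more than 1 array for 15714 probesets (45.2%), among them 4 of the 10 Notch genes. How far these repeats narrow the spread between arrays was not tested.

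The promoters of 8 of the 10 genes were matched in the RefSeq tables of mouse build GRCm38.p6, as 9 windows from 250 bases before to 50 after an annotated start, while Hes1 and Hey1 are named only. Of the 9 windows 4 are shown, those of Jag1, Dll1, Notch1 and Lfng, which each rose or fell in HC11-mutB1. They were searched for letters that 2 regulators of the pathway are known to bind, Rbpj and Hes1, whose own levels also moved. Capitals mark GTGGGAA, the letters Rbpj binds, or the N-box CACNAG, the letters Hes repressors bind, searched on both strands, with overlapping matches written as 1 run. The window of Jag1 (chr2:137116471-137116770, minus strand) holds neither.
Jag1: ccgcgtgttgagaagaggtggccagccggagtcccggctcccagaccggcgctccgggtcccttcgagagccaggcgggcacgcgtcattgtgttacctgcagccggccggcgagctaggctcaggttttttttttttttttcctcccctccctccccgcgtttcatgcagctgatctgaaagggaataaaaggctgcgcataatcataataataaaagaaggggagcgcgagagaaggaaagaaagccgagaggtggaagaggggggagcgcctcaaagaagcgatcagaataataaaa
The window of the second annotated start of Dll1 (chr17:15376883-15377182, minus strand) holds 1 N-box, 14 bases after the start, while that of the other annotated start (chr17:15375774-15376073) holds neither set of letters and is not shown.
Dll1: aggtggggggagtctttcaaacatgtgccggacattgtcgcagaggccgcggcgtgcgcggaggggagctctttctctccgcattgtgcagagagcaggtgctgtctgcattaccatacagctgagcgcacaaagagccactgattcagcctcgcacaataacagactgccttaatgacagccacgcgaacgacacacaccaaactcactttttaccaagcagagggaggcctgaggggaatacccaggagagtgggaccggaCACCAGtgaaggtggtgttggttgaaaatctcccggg
The window of Notch1 (chr2:26503773-26504072, minus strand) holds 3 N-boxes, at -108, -3 and -1, the last 2 of which overlap.
Notch1: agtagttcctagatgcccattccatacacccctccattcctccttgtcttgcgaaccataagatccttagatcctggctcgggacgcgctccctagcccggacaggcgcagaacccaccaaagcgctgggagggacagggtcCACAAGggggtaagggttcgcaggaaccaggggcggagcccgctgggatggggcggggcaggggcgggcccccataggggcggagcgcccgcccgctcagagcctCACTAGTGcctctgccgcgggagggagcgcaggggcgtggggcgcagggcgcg
The Notch2 window, not shown, holds 1 N-box, at -247. That of Notch3, also not shown, holds 2, at -204 and -159, and those of Jag2 and Notch4 hold neither set of letters. The window of Lfng (chr5:140607091-140607390, plus strand) holds the Rbpj letters at -109 and an N-box at -181.
Lfng: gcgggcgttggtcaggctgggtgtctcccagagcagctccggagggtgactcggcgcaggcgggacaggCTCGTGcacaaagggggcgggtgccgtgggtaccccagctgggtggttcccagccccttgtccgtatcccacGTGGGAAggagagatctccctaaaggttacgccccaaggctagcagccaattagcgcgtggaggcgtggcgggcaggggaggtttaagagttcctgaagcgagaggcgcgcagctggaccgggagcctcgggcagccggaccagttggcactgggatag
Of the 9 windows, 1 held the Rbpj letters and 5 an N-box, against 6.38% and 42.5% of the 32851 RefSeq mouse promoter windows. The CArG box, the site SRF binds, was found in 0 of the 9, against 1.63% of all windows. A match of letters is a description and does not show that a factor binds there.

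The largest difference between strains among the 10 genes was that of a ligand. Jag1, the Jagged ligand that signals through several Notch receptors, lay at 8.74, 8.74 and 8.88 in HC11-mutB1 cells, at 7.19, 7.23 and 7.23 in HC11-ΔSAP cells and at 6.74, 6.48 and 6.81 in HC11-FL cells. The 3 strains did not overlap, and HC11-mutB1 stood far above the others. The level in HC11-mutB1 exceeded that in HC11-FL by 2.11 ± 0.09 on the log2 scale (SE), which is 4.31-fold (95% interval 1.91 to 2.31 in log2, adjusted p = 1.8e-06), and passed all filters. HC11-ΔSAP exceeded HC11-FL by 0.54 ± 0.09 (SE), or 1.45-fold, with an adjusted p of 0.0026. This smaller rise was lost in a fit of these strains alone (adjusted p = 0.012) and without replicate 2 or replicate 3 of HC11-ΔSAP (adjusted p = 0.013 and 0.012), arrays which hold exactly the same deposited value. In the direct comparison HC11-ΔSAP cells had less Jag1 than HC11-mutB1 cells, by 1.57 ± 0.09 in log2 (2.96-fold, adjusted p = 1.0e-05), again past all filters. In such bulk RNA, a larger share of cells that express a gene and more RNA per cell cannot be told apart.

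Dll1, a Delta-like ligand, moved in the same direction in HC11-mutB1 but by less. Its level was 6.72, 6.88 and 6.64 in HC11-mutB1, 5.92, 5.95 and 6.10 in HC11-ΔSAP and 6.18, 6.17 and 6.10 in HC11-FL. The HC11-mutB1 arrays lay above all others, while the highest HC11-ΔSAP and the lowest HC11-FL array differed by less than the rounding. Dll1 rose in HC11-mutB1 against HC11-FL by 0.59 ± 0.07 (SE, 1.51-fold, adjusted p = 8.1e-04). In HC11-ΔSAP it differed from HC11-FL by -0.16 (95% interval -0.33 to 0.01, adjusted p = 0.22), and HC11-ΔSAP cells had less of it than HC11-mutB1 cells, by 0.75 ± 0.07 (SE, 1.69-fold, adjusted p = 2.7e-04). Jag2, the other Jagged ligand, passed in no comparison. It averaged 7.53 ± 0.19 in HC11-mutB1, 7.37 ± 0.07 in HC11-ΔSAP and 7.28 ± 0.03 in HC11-FL (SD, n = 3 each), and its differences from HC11-FL were 0.24 (95% interval 0.04 to 0.45, adjusted p = 0.11) in HC11-mutB1 and 0.09 (-0.12 to 0.30, adjusted p = 0.62) in HC11-ΔSAP.

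Lfng encodes Lunatic fringe, a glycosyltransferase of the Golgi that lengthens the O-fucose sugars of Notch and so changes which ligands it answers to. Its levels were 7.42, 7.32 and 7.09 in HC11-mutB1, 7.58, 7.61 and 7.64 in HC11-ΔSAP and 8.08, 7.83 and 8.07 in HC11-FL. The strains did not overlap and HC11-mutB1 was lowest. Lfng fell in HC11-mutB1 by 0.72 ± 0.10 against HC11-FL (SE, 1.64-fold, adjusted p = 0.0014), a call lost in the fit of these strains alone (adjusted p = 0.010, just above the limit). In HC11-ΔSAP the difference from HC11-FL was -0.38 (95% interval -0.61 to -0.16, adjusted p = 0.028) and that from HC11-mutB1 was 0.33 (0.10 to 0.56, adjusted p = 0.062), neither of which passed. The difference from HC11-FL did pass (adjusted p = 0.0098) when p-values were adjusted over 1 value per gene, the mean of its probesets.

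**Figure D1:**
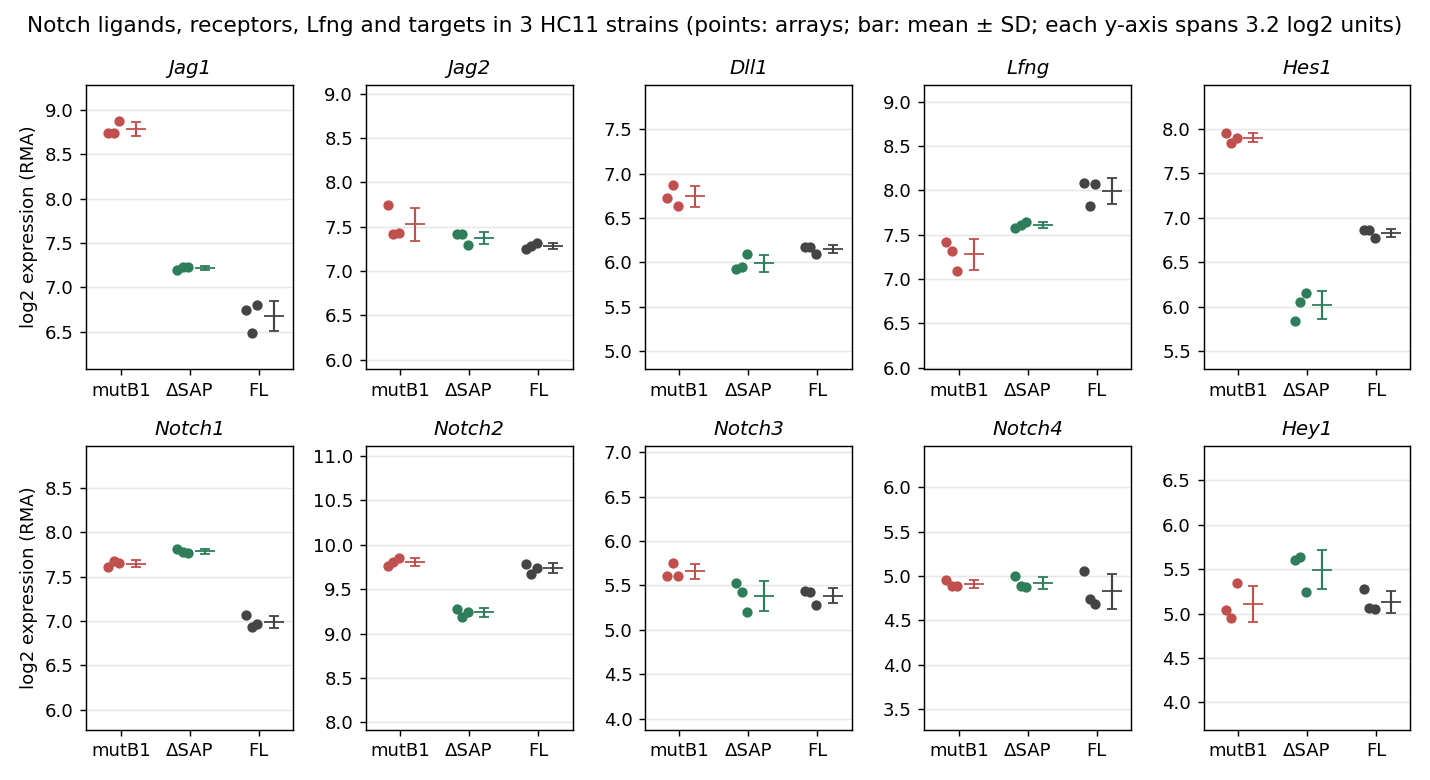
Log2 expression (y axis) of each of the 10 Notch genes in HC11-mutB1, HC11-ΔSAP and HC11-FL, with 1 point per array and the mean ± SD (n = 3). The y axis has the same span in every panel. Jag1 and Hes1 lie highest in HC11-mutB1, Notch1 lies lowest in HC11-FL and Notch2 lowest in HC11-ΔSAP.

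The receptors differed among themselves in their pattern over the strains. Notch1 was higher in both mutant strains, with 7.61, 7.68 and 7.65 in HC11-mutB1, 7.81, 7.78 and 7.76 in HC11-ΔSAP and 7.07, 6.94 and 6.96 in HC11-FL. Every array of both mutant strains lay above every HC11-FL array. The rise over HC11-FL was 0.66 ± 0.05 in HC11-mutB1 (SE, 1.58-fold, adjusted p = 4.5e-05) and 0.80 ± 0.05 in HC11-ΔSAP (SE, 1.74-fold, adjusted p = 1.7e-05). Between HC11-ΔSAP and HC11-mutB1 the difference was 0.14 (95% interval 0.03 to 0.25, adjusted p = 0.11). Both comparisons with HC11-FL use the same 3 HC11-FL arrays.

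Notch2, the paralog of Notch1, was lower in HC11-ΔSAP. The arrays read 9.77, 9.80 and 9.85 in HC11-mutB1, 9.28, 9.19 and 9.25 in HC11-ΔSAP and 9.79, 9.67 and 9.74 in HC11-FL, so that HC11-ΔSAP lay below both other strains without overlap. Notch2 fell in HC11-ΔSAP by 0.50 ± 0.05 against HC11-FL (SE, 1.41-fold, adjusted p = 2.0e-04) and by 0.57 ± 0.05 against HC11-mutB1 (SE, 1.48-fold, adjusted p = 1.3e-04). In HC11-mutB1 it differed from HC11-FL by 0.07 (95% interval -0.04 to 0.18, adjusted p = 0.42).

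Notch3 and Notch4, receptors known from vascular smooth muscle and endothelium, passed in no comparison. Notch3 averaged 5.66 ± 0.08 in HC11-mutB1, 5.38 ± 0.17 in HC11-ΔSAP and 5.38 ± 0.09 in HC11-FL (SD, n = 3 each). HC11-mutB1 differed from HC11-FL by 0.27 (95% interval 0.06 to 0.49, adjusted p = 0.084). Notch4 averaged 4.91 ± 0.04 in HC11-mutB1, 4.92 ± 0.07 in HC11-ΔSAP and 4.83 ± 0.20 in HC11-FL (SD, n = 3 each). Its differences from HC11-FL were 0.08 in HC11-mutB1 (adjusted p = 0.65) and 0.09 in HC11-ΔSAP (adjusted p = 0.62). The 4 further probesets annotated to both Notch4 and Sympk were not used.

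Hes1, a basic helix-loop-helix repressor and a main direct target of Notch, moved in opposite directions in the mutant strains. Its levels were 7.95, 7.85 and 7.90 in HC11-mutB1, 5.84, 6.06 and 6.15 in HC11-ΔSAP and 6.86, 6.86 and 6.77 in HC11-FL. The strains were fully apart, with HC11-mutB1 highest and HC11-ΔSAP lowest. Hes1 rose in HC11-mutB1 by 1.07 ± 0.08 (SE, 95% interval 0.89 to 1.26, adjusted p = 4.7e-05), past all filters and little above the fold limit of 2. It fell in HC11-ΔSAP by 0.81 ± 0.08 against HC11-FL (SE, 1.76-fold, adjusted p = 1.9e-04). The direct comparison gave the widest gap for this gene: HC11-ΔSAP cells lay below HC11-mutB1 cells by 1.88 ± 0.08 (SE, 3.69-fold, adjusted p = 3.0e-06), past all filters.

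Markers of cell types also moved between the strains. The summed linear signal of the 4 basal markers was 4741 to 4890 in HC11-mutB1, 2109 to 2168 in HC11-ΔSAP and 2983 to 3035 in HC11-FL, the order of Hes1. That order was set by the keratins Krt5, at 1.15 in HC11-mutB1 and -1.90 in HC11-ΔSAP against HC11-FL in log2, and Krt14, at 0.59 and -0.27. The other basal markers had other orders: Trp63 was highest in HC11-ΔSAP (means of 7.54 in HC11-mutB1, 7.81 in HC11-ΔSAP and 7.12 in HC11-FL) and Itga6 in HC11-FL (7.69, 7.48 and 8.14). The mammary epithelial list summed to 5245 to 5464 in HC11-mutB1, 5442 to 5558 in HC11-ΔSAP and 5523 to 5768 in HC11-FL. Within it, however, Krt18 fell by 1.36 in HC11-ΔSAP (adjusted p = 4.8e-06) while Epcam rose by 0.42 (adjusted p = 3.1e-04). In HC11-mutB1 against HC11-FL Krt8 fell by 0.72 (adjusted p = 6.6e-05) and Krt18 by 0.65 (adjusted p = 2.4e-04). Epcam rose there by 0.54 (adjusted p = 8.9e-05). The 4 fibroblast markers, of which Lum lay below the minimum, summed to 279.9 to 296.9 in HC11-mutB1, 330.3 to 344.1 in HC11-ΔSAP and 320.8 to 340.6 in HC11-FL. Within them Dcn rose by 1.81 in HC11-ΔSAP against HC11-FL (adjusted p = 2.0e-07), while Pdgfra fell by 0.42 (adjusted p = 0.0059) and Pdgfrb fell by 0.38 (adjusted p = 0.0076). In HC11-mutB1 against HC11-FL Pdgfra rose by 0.51 (adjusted p = 0.0024). Dcn fell there by 0.48 (adjusted p = 1.4e-04) and Pdgfrb by 0.87 (adjusted p = 9.8e-05). The 2 blood markers, of which Ptprc lay below the minimum, ran from 168.8 to 178.9 in HC11-mutB1, 291.5 to 299.1 in HC11-ΔSAP and 216.4 to 220.8 in HC11-FL. Their part in the Hes1 result was not tested.

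Hey1, a repressor of the Hes-related Hey family, passed in no comparison. It averaged 5.11 ± 0.21 in HC11-mutB1, 5.49 ± 0.22 in HC11-ΔSAP and 5.13 ± 0.12 in HC11-FL (SD, n = 3 each). HC11-mutB1 differed from HC11-FL by -0.02 (95% interval -0.34 to 0.30, adjusted p = 0.94). HC11-ΔSAP differed from HC11-FL by 0.36 (0.04 to 0.68, adjusted p = 0.13) and from HC11-mutB1 by 0.38 (0.06 to 0.70, adjusted p = 0.12).

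Of the 10 genes, 4 rose and 1 fell in HC11-mutB1 against HC11-FL at any fold, where 15.7% of the 13157 genes above the minimum rose and 10.6% fell. Past all filters, 2 rose (Jag1 and Hes1) and 0 fell, against 2.21% and 1.67% of all genes. In HC11-ΔSAP against HC11-FL 2 rose (Jag1 and Notch1) and 2 fell (Hes1 and Notch2) at any fold, where 16.0% of all genes rose and 12.0% fell. Past all filters limma called 0 in either direction there, against 2.06% and 2.07% of all genes. In HC11-ΔSAP against HC11-mutB1 0 were higher and 4 lower (Dll1, Hes1, Jag1 and Notch2), against 9.86% and 10.6% of all genes. Past all filters 0 were higher and 2 lower, Jag1 and Hes1, against 1.61% and 2.28%. With a fold of at least 1.5 in place of 2, the Notch genes passing were 4 higher and 1 lower in HC11-mutB1 against HC11-FL (6.26% and 3.79% of all genes), 1 higher and 1 lower in HC11-ΔSAP against HC11-FL (6.74% and 4.63%), and 0 higher and 3 lower in HC11-ΔSAP against HC11-mutB1 (3.88% and 5.06%). At an unadjusted limma p under 0.05 and any fold, 6 of the 10 had a higher and 1 a lower mean in HC11-mutB1 against HC11-FL, where 27.4% and 22.9% of all genes did. The counts were 3 and 3 in HC11-ΔSAP against HC11-FL (26.8% and 22.9% of all genes) and 3 and 5 in HC11-ΔSAP against HC11-mutB1 (22.6% and 21.5%). The median absolute log2 difference of the 10 genes was 0.43, 0.37 and 0.36 in these comparisons in the order given, against 0.17, 0.16 and 0.13 over all genes. The 10 genes were chosen with earlier results of these data known, so these shares and medians cannot show that the list stands out.

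**Figure D2:**
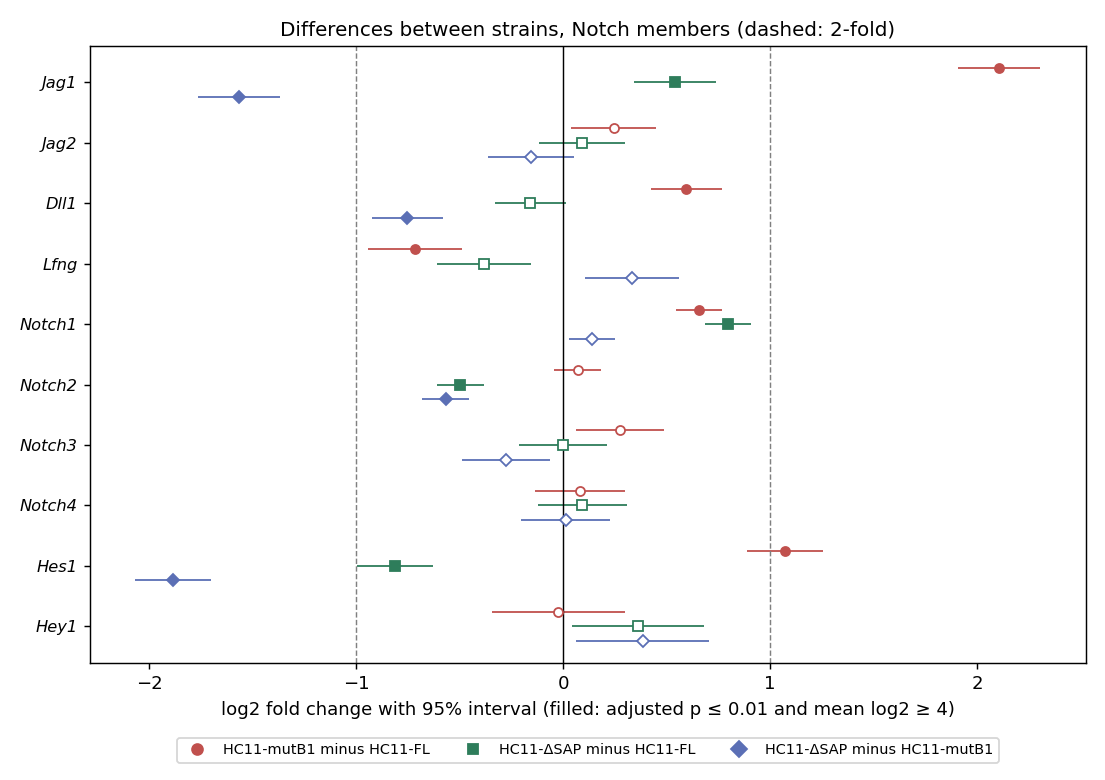
Log2 fold change (x axis) of each of the 10 Notch genes (y axis) in HC11-mutB1 and HC11-ΔSAP against HC11-FL and in HC11-ΔSAP against HC11-mutB1, with 95% intervals from limma. Jag1 reaches 2.11 in HC11-mutB1 against HC11-FL, and Hes1 reaches -1.88 in HC11-ΔSAP against HC11-mutB1.

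For a single gene, an exact two-sided permutation test of 3 arrays against 3 cannot give a p below 0.1, so the calls rest on the fit across all probesets.

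Other genes of the pathway were read from a list of 52, of which 50 were analysed here and 47 lay above the minimum. In HC11-mutB1 against HC11-FL 9 of the 47 rose and 7 fell at any fold (19.1% and 14.9%, against 15.7% and 10.6% of all genes). In HC11-ΔSAP against HC11-FL 5 rose and 8 fell (10.6% and 17.0%, against 16.0% and 12.0%). In HC11-ΔSAP against HC11-mutB1 5 were higher and 9 lower (10.6% and 19.1%, against 9.86% and 10.6%). Their median absolute log2 difference was 0.21, 0.14 and 0.18 in these comparisons, against 0.17, 0.16 and 0.13 over all genes. This list, too, was chosen with earlier results of these data known. The 4 other ligands above the minimum (Dll3, Dll4, Dlk1 and Dlk2) passed in no comparison.

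The enzymes that put sugars on the receptors did not move as 1 group. Besides Lfng, which was lowest in HC11-mutB1 and fell there, 3 lay above the minimum. Of these all 3 rose in HC11-ΔSAP and 2 in HC11-mutB1 against HC11-FL at any fold, against 16.0% and 15.7% of all genes. Rfng (Radical fringe) averaged 8.61 ± 0.09 in HC11-mutB1, 8.41 ± 0.01 in HC11-ΔSAP and 7.87 ± 0.02 in HC11-FL, so that HC11-mutB1 exceeded HC11-FL 1.67-fold (adjusted p = 3.5e-05) and HC11-ΔSAP exceeded it 1.46-fold (adjusted p = 1.8e-04), with a difference of -0.20 between HC11-ΔSAP and HC11-mutB1 that did not pass (adjusted p = 0.037). Pofut1, the O-fucosyltransferase whose sugar the fringes extend, averaged 7.51 ± 0.11 in HC11-mutB1, 7.63 ± 0.06 in HC11-ΔSAP and 7.04 ± 0.10 in HC11-FL (SD). Its rise of 0.59 in HC11-ΔSAP had an adjusted p of 8.6e-04, and its rise of 0.47 in HC11-mutB1 (adjusted p = 0.0030) was lost in the fit of these strains alone (adjusted p = 0.014) and without any 1 of 4 arrays, which were HC11-FL replicates 2 and 3 and HC11-mutB1 replicates 1 and 2. Poglut1, which adds O-glucose to Notch, averaged 8.69 ± 0.08 in HC11-mutB1, 9.24 ± 0.06 in HC11-ΔSAP and 8.66 ± 0.12 in HC11-FL (SD), a rise of 0.58 in HC11-ΔSAP over HC11-FL (adjusted p = 6.5e-04) and of 0.54 over HC11-mutB1 (adjusted p = 0.0013).

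The nuclear partners moved in different directions. Rbpj, the DNA-binding protein of the pathway, lay at 9.32, 9.31 and 9.50 in HC11-mutB1, 10.34, 10.34 and 10.41 in HC11-ΔSAP and 9.86, 9.88 and 9.86 in HC11-FL. HC11-mutB1 was lowest and HC11-ΔSAP highest, with no overlap, which is the reverse of the order of Hes1. Rbpj fell in HC11-mutB1 by 0.49 ± 0.06 (SE, 1.40-fold, adjusted p = 6.6e-04), rose in HC11-ΔSAP by 0.50 ± 0.06 (SE, 1.41-fold, adjusted p = 5.1e-04), and in HC11-ΔSAP cells exceeded the HC11-mutB1 level 1.98-fold (adjusted p = 1.6e-05). A second Rbpj probeset read only 3.01 to 3.58 in the 9 arrays, below the minimum, and with the mean of both probesets the differences from HC11-FL were -0.14 in HC11-mutB1 (adjusted p = 0.22) and 0.27 in HC11-ΔSAP (adjusted p = 0.026), neither of which passed.

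Maml2 and Maml3, Mastermind coactivators that bind Rbpj with Notch, rose in HC11-mutB1, while Maml1 passed in no comparison. Maml3 averaged 6.45 ± 0.07 in HC11-mutB1, 5.76 ± 0.08 in HC11-ΔSAP and 5.75 ± 0.20 in HC11-FL (SD, n = 3 each). HC11-mutB1 exceeded HC11-FL 1.62-fold (adjusted p = 0.0016) and HC11-ΔSAP lay 1.61-fold below HC11-mutB1 (adjusted p = 0.0020), a call that 4 of the 9 fits without 1 array lost: those without HC11-mutB1 replicate 1 or 3 or HC11-ΔSAP replicate 1 or 2. Maml2 averaged 7.18 ± 0.11 in HC11-mutB1, 6.61 ± 0.06 in HC11-ΔSAP and 6.78 ± 0.02 in HC11-FL (SD). HC11-ΔSAP lay 1.48-fold below HC11-mutB1 (adjusted p = 4.7e-04), and its rise of 0.40 in HC11-mutB1 (adjusted p = 0.0025) was lost in the fit of these strains alone (adjusted p = 0.010) and in the fits without each HC11-FL array.

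Of the genes for trafficking and turnover, Numb, an inhibitor of Notch, was lower in HC11-ΔSAP. It averaged 7.74 ± 0.08 in HC11-mutB1, 7.16 ± 0.09 in HC11-ΔSAP and 7.69 ± 0.05 in HC11-FL (SD), and fell by 0.53 against HC11-FL (1.44-fold, adjusted p = 6.6e-04). Dtx4, a ubiquitin ligase of the Deltex family, was lower in both mutant strains. It read 6.58, 6.55 and 6.52 in HC11-mutB1, 6.37, 5.96 and 6.05 in HC11-ΔSAP and 7.45, 7.47 and 7.46 in HC11-FL, so that it fell by 0.91 ± 0.10 in HC11-mutB1 (SE, 1.88-fold, adjusted p = 3.0e-04) and fell by 1.33 ± 0.10 in HC11-ΔSAP (SE, 2.52-fold, adjusted p = 3.8e-05), the second of which passed all filters. Between HC11-ΔSAP and HC11-mutB1 it differed by -0.42 (adjusted p = 0.020), which passed with array weights (adjusted p = 0.0064), with 1 value per gene (adjusted p = 0.0061) and without HC11-ΔSAP replicate 1 (adjusted p = 5.2e-04).

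Of the 9 other targets above the minimum, Myc, a growth regulator that Notch1 activates in T cell leukaemia, fell in both mutant strains. Its levels were 9.86, 9.91 and 9.92 in HC11-mutB1, 10.01, 9.93 and 9.97 in HC11-ΔSAP and 11.24, 11.17 and 11.18 in HC11-FL. Myc fell by 1.30 ± 0.04 in HC11-mutB1 (SE, 2.46-fold, adjusted p = 7.1e-07) and fell by 1.23 ± 0.04 in HC11-ΔSAP (SE, 2.35-fold, adjusted p = 9.6e-07), past all filters in both. Ccnd1, the cyclin D1 gene, lay at 8.89, 8.72 and 8.78 in HC11-mutB1, 7.84, 7.80 and 7.89 in HC11-ΔSAP and 7.99, 7.86 and 7.88 in HC11-FL. It rose in HC11-mutB1 by 0.89 ± 0.06 against HC11-FL (SE, 1.85-fold, adjusted p = 2.8e-05) and HC11-ΔSAP cells had less of it than HC11-mutB1 cells, by 0.96 ± 0.06 (SE, 1.94-fold, adjusted p = 2.0e-05). Both genes answer to many other pathways. Hes6, a Hes family member counted among these 9 although it is not a typical Notch target, fell by 0.48 in HC11-mutB1 (adjusted p = 4.4e-04) and by 0.30 in HC11-ΔSAP (adjusted p = 0.0053). The remaining targets above the minimum, Hes2, Hes3, Hes5, Hes7, Heyl and Nrarp, passed in no comparison.

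**Figure D3:**
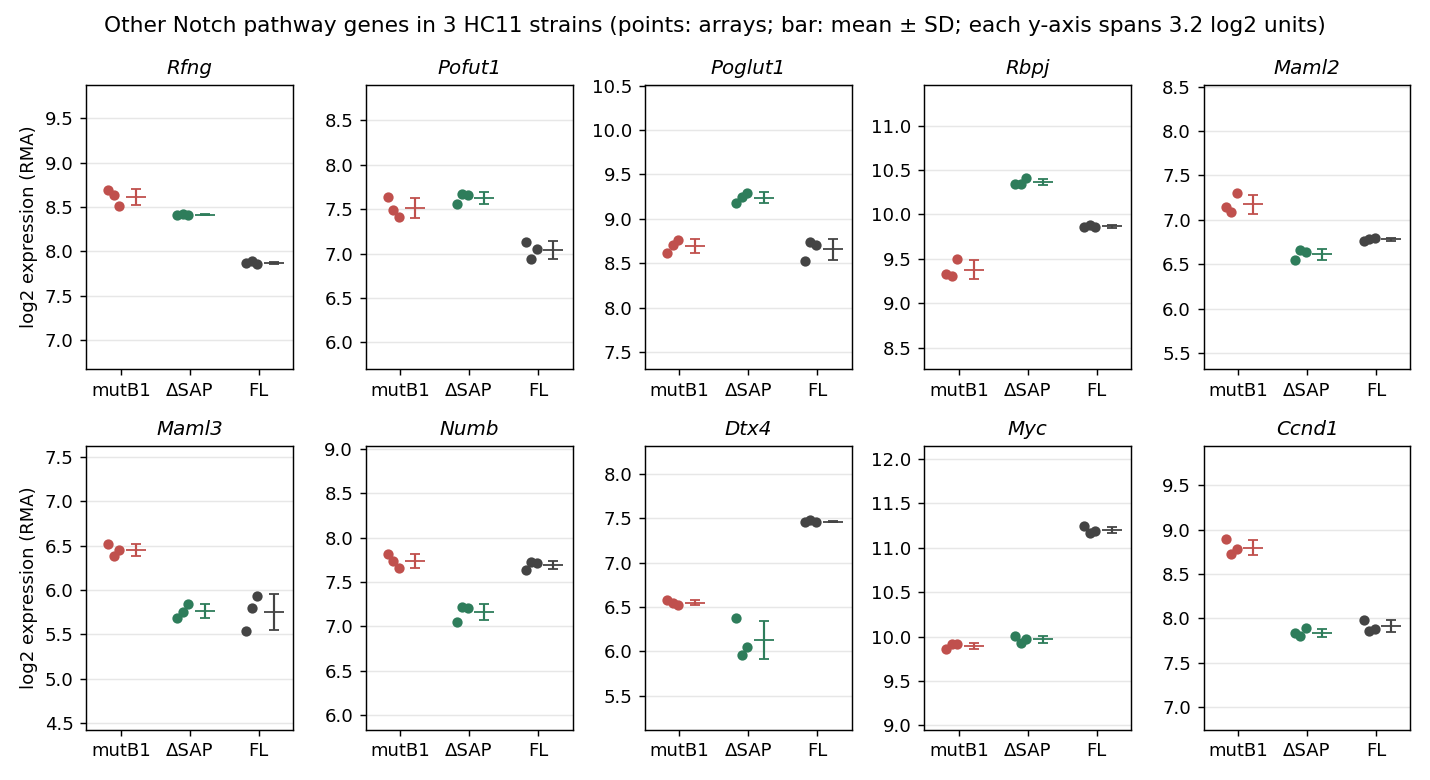
Log2 expression (y axis) of the 10 other Notch pathway genes named by rule in HC11-mutB1, HC11-ΔSAP and HC11-FL, with 1 point per array and the mean ± SD (n = 3). Rbpj is lowest in HC11-mutB1 and highest in HC11-ΔSAP, and Myc and Dtx4 are highest in HC11-FL.

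**Figure D4:**
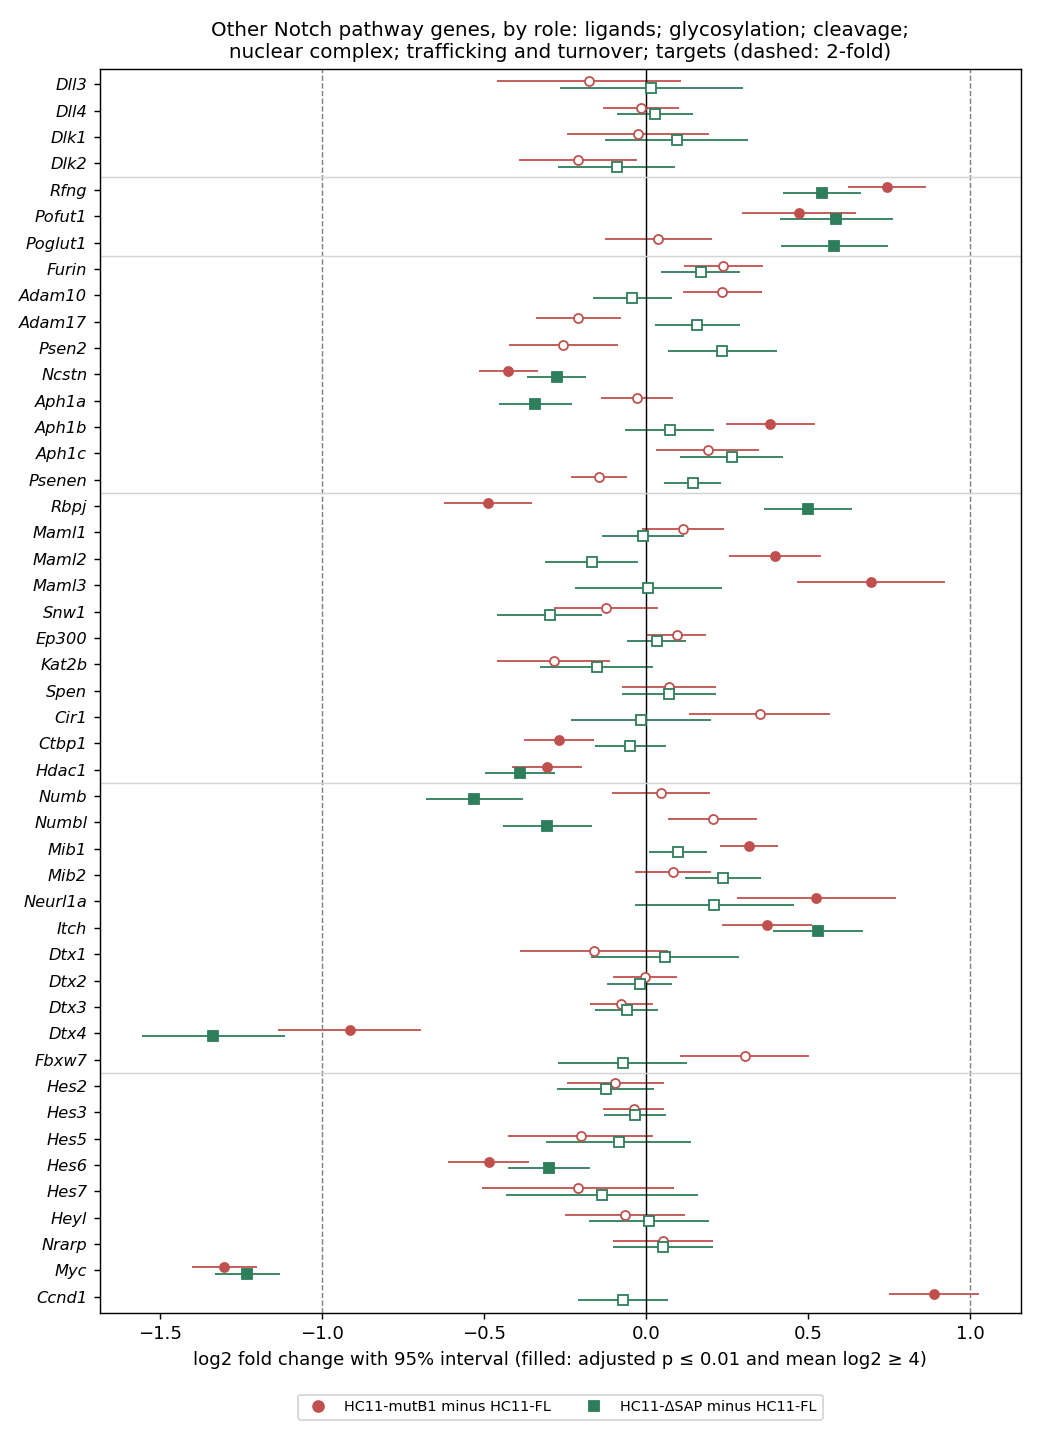
Log2 fold change (x axis) of the 47 other pathway genes above the minimum (y axis), with 95% intervals from limma. The comparisons are HC11-mutB1 and HC11-ΔSAP against HC11-FL. Myc reaches -1.30 in HC11-mutB1 and -1.23 in HC11-ΔSAP against HC11-FL.

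Among the receptor-cleaving enzymes, the comparison of HC11-ΔSAP with HC11-mutB1 had 3 higher (Adam17, Psen2 and Psenen) and 3 lower (Adam10, Aph1a and Aph1b) of 9, against 9.86% and 10.6% of all genes. Adam10 and Adam17 are the proteases that cut the receptor outside the cell, and the others are parts of the gamma-secretase that frees its intracellular domain. The differences were 0.49 for Psen2, 0.37 for Adam17 and 0.29 for Psenen, and -0.28 for Adam10, -0.31 for Aph1a and -0.31 for Aph1b, with adjusted p between 0.0013 and 0.0091. A second Psenen probeset, which does not enter these values, read 8.81 to 9.71 over the arrays. Ncstn, another gamma-secretase subunit, fell against HC11-FL by 0.42 in HC11-mutB1 (adjusted p = 1.6e-04) and by 0.28 in HC11-ΔSAP (adjusted p = 0.0015).

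The genes whose levels ran most like those of Jag1 over the 9 arrays, of 13156 searched, were Rbms3 (Pearson r = 0.996), Fat2 (0.994) and Thsd7a (0.994). Fat2 differed from HC11-FL by 1.85 in HC11-mutB1 and 0.50 in HC11-ΔSAP. For Hes1 they were Bace1 (0.996), Adam12 (0.995) and Flna (0.995), of which Adam12 differed from HC11-FL by 1.36 in HC11-mutB1 and -0.96 in HC11-ΔSAP. These correlations are descriptions over 9 arrays in 3 strains, so they follow mainly the strain means, and the genes were picked as the highest of many.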

How the data were processed

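RNA of HC11-mutB1, HC11-ΔSAP and HC11-FL cells was hybridised to Affymetrix Mouse Gene 1.0 ST arrays, 3 per strain. The authors normalised the scans with RMA and deposited log2 expression values of 34760 probesets; R 2.10.0, affy and Bioconductor 2.4 are the tools in the submitters' processing notes. Depth has no meaning for arrays; their number limits the precision. Probesets were named from the platform annotation: 21640 had 1 symbol, 1321 several (not used) and 11799 none.

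A linear model with 1 mean per strain was fitted with limma 3.58.1 in R 4.3.3 to all 9 arrays, with eBayes and Benjamini-Hochberg adjustment over all probesets, after a test on simulated data. Filters were those of the study: adjusted p at most 0.01, fold at least 2 and mean log2 expression at least 4. The 10 genes, the pathway list and the markers were chosen with earlier results of these data known. Other pathway genes were named if they passed all filters, or were among the 5 with the largest change in a comparison. Hes6, the targets that passed in no comparison and the receptor-cleaving enzymes were named after their values were seen. For Jag1 and Hes1 the 3 most correlated genes are named. Array build, scan dates and proteins were not used here. Alternatives covered the samples fitted, scaling, filters, variance prior, array weights, probeset choice and left-out arrays.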

Additional observations from a re-analysis of the deposited data

How the results depend on the processing

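The call counts of the 10 Notch genes past all filters were 2, 0 and 2 (HC11-mutB1 against HC11-FL, HC11-ΔSAP against HC11-FL, HC11-ΔSAP against HC11-mutB1) in every fit that left out 1 array. With a fold of at least 1.5 in place of 2 they were 5 in HC11-mutB1 and 2 in HC11-ΔSAP against HC11-FL, and 3 in HC11-ΔSAP against HC11-mutB1. Of the 47 other pathway genes, 16, 13 and 14 passed; fitting only the strains compared, with fewer arrays for the spread, gave 10 for HC11-mutB1 against HC11-FL and 9 for HC11-ΔSAP against HC11-mutB1. Leaving out 1 array gave 10 to 15 in HC11-mutB1 against HC11-FL (10 without HC11-mutB1 replicate 2), 11 to 12 in HC11-ΔSAP against HC11-FL and 7 to 12 in HC11-ΔSAP against HC11-mutB1 (9 without HC11-mutB1 replicate 1, 8 without HC11-mutB1 replicate 2, 7 without HC11-ΔSAP replicate 2).

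Small differences that did not pass changed sign: Poglut1 in HC11-mutB1 was -0.0009 when quantile normalised again, Notch3 in HC11-ΔSAP was 0.0101 when centred on array medians, 0.0136 when quantile normalised and 0.0295 with array weights, Maml3 in HC11-ΔSAP was -0.0479 with array weights, and Notch4 in HC11-ΔSAP against HC11-mutB1 was -0.0013 with array weights. Leaving out 1 array gave -0.1402 to 0.0581 for Hey1 in HC11-mutB1, -0.0287 to 0.0803 for Poglut1 in HC11-mutB1, -0.0743 to 0.09 for Notch3 in HC11-ΔSAP, -0.1003 to 0.0955 for Maml3 in HC11-ΔSAP and -0.0274 to 0.0362 for Notch4 in HC11-ΔSAP against HC11-mutB1.

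Same-numbered arrays of different strains deviated together only weakly, with r from -0.11 to 0.26. Differently numbered arrays gave r from -0.26 to 0.23. Replicate 1 arrays had r of 0.12 (HC11-FL with HC11-mutB1), 0.26 (HC11-FL with HC11-ΔSAP) and 0.11 (HC11-mutB1 with HC11-ΔSAP). With 3 arrays per strain, these values cannot settle whether the numbers pair the samples. With the replicate number as a block, 12, 11 and 10 other pathway genes passed and the counts of the 10 Notch genes past all filters stayed at 2, 0 and 2. The rise of Pofut1 in HC11-mutB1 was among the calls lost with the block (adjusted p = 0.011). Of the 540 alternative values of the 10 Notch genes 524 kept direction and side of the threshold, and of those of the named pathway genes 516. The cause of the other changes was not tested. Several alternatives, such as fitting only the strains compared or changing the variance prior, cannot alter a fold. In those only the side of the threshold could move. Precision is limited by 3 arrays per strain.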
